A study of Mus musculus with 4 samples.

Results

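The genes described here encode the subunits, activators and assembly factors of the proteasome. They were taken as every gene symbol of the count matrix that begins with Psm followed by a letter from a to g and a digit, which gave 50 of 24421 symbols. By role, 19 of the 50 belong to the 20S core particle, 17 to the 19S regulatory particle, 6 to alternative regulators of the core and 7 to assembly chaperones. Psmc3ip, a factor of meiotic recombination, matched by name only and is not a proteasome subunit.

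The proteasome degrades proteins that carry ubiquitin chains. Its core particle is a barrel of stacked rings, in which the outer rings of alpha subunits form a gated entrance and the inner rings of beta subunits hold the proteolytic sites. The regulatory particle caps the barrel, binds the ubiquitin chain, removes it and unfolds the substrate with a ring of ATPases. When proteasome activity is low, the transcription factor NFE2L1 is known to raise transcription of proteasome genes through antioxidant response elements in their promoters.

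RNA came from B16F10, a melanoma line of C57BL/6 mice, in bulk cultures that had been transduced with lentiviral vectors, selected with puromycin and expanded. Cells of 2 libraries carried the vector shControl, which the sample labels call a control shRNA and the study's list of reagents an empty vector, and cells of 2 carried shLmna, a vector with a short hairpin RNA that targets Lmna, which encodes lamins A and C. Both groups share the line, the transduction, the selection, puromycin at 2.5 µg/mL and 10% FBS. Each is a population rather than a clone as far as the study describes it. If the control vector was empty, the carrying of any hairpin and the loss of lamin A/C cannot be told apart. The sources used here do not say if replicate libraries go back to different transductions, so p-values measure the spread between these libraries, which may be technical.

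Counts were made at the 3′ end of transcripts by MARS-seq, which starts reverse transcription from the poly(A) tail and tags each molecule. Library totals ranged from 2494880 to 3808843 counts, and n = 2 per group throughout. Lmna itself stood at 875.3 and 718.6 CPM (counts scaled to a common library size) in shControl 1 and 2 and at 130.9 and 130.8 CPM in shLmna 1 and 2. Of the melanocyte markers, the summed level was 20193 to 20975 CPM in shControl and 21214 to 24669 CPM in shLmna. Pmel and Mlana were higher and Sox10 lower (3 of 7 tested past the edgeR threshold), and Tyr was at 1 to 7 counts per library. At that threshold, an adjusted p under 0.05, 9.74% of all tested genes were lower and 5.48% higher. Of the leukocyte markers, Cd68 was at 10.7 to 12.0 CPM in shLmna and 14.5 to 16.4 CPM in shControl, and Ptprc, Cd3e and Adgre1 were at 0. Markers of stromal, endothelial and epithelial cells summed to 0.791 to 4.55 CPM, with Cdh5, Dcn, Epcam and Krt5 at 0 (4 of 6). The part of the melanocyte markers in the results below was not tested. In bulk cultures, fewer cells with a transcript and less of it per cell cannot be told apart.

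Promoter windows of 250 bases before to 50 bases after the RefSeq start site (GRCm38.p6) were found for 42 of the 50 genes. The core of the antioxidant response element, TGACNNNGC on either strand, was present in 5 of 41 windows of tested proteasome genes (12.2%). Among all 32851 RefSeq windows it was present in 12.4%. The matches of tested genes are shown with up to 10 bases on each side, because this element is the one tied to proteasome transcription in general. Each is written 5′ to 3′ along the gene, and capitals mark the match.
Psmb5, chr14:54618024-54618052, minus strand: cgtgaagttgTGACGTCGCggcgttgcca
Psmb6, chr11:70525338-70525366, plus strand: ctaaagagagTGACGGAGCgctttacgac
Psmc6, chr14:45329587-45329615, plus strand: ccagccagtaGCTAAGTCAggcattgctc
Psmd12, chr11:107479278-107479299, plus strand: tctGCTGTGTCAcatttgcccc
Psme4, chr11:30771758-30771786, plus strand: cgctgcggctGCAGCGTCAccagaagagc

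The first base of the match lay at -47 from the start site in Psmb5, -9 in Psmb6, -227 in Psmc6, -247 in Psmd12 and -7 in Psme4. Psmb5 and Psmc6 are among the genes that rose in shLmna, as described below, whereas Psmb6, Psmd12 and Psme4 did not pass the test. Psmd14 and Psma4, which had the largest fold changes of either sign among the genes that passed, held no match in their windows. CCAAT, a frequent promoter motif that shares no position with the element in these windows, was present in 13 of 41 windows of tested proteasome genes (31.7%) and in 37.4% of all windows. Psmd14 held 3 CCAAT matches, at -159, 4 and 7, of which the last pair overlap on opposite strands. The first is shown as it reads along the gene, in reverse complement.
Psmd14, chr2:61711525-61711549, plus strand: gtgaagcaggATTGGcactgtgaaa
A match says only that these letters occur in the window.

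To ask whether proteasome transcripts moved with lamin A/C knockdown, 45 of the 50 genes had enough counts to be tested, within a fit of 9150 genes. Of the 45, 1 fell and 5 rose in shLmna at an edgeR quasi-likelihood adjusted p under 0.05. Psmd14, the deubiquitinase of the regulatory particle, fell by 53.0%. Psma4, Psma5 and Psmb5 of the core and Psmc6 and Psmd11 of the regulatory particle rose, by 35.3% to 113%. The gene called lower is 2.22% of the tested proteasome genes, against 9.74% of all tested genes. The genes called higher are 11.1%, against 5.48% of all tested genes.

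With the study's further limits, a log2 fold change over 1 in size and a mean normalized count over 5, Psmd14 alone passed downward and Psma4 alone upward. Each is 2.22% of the tested proteasome genes, against 5.88% of all tested genes in the lower and 1.76% in the higher direction. Without shLmna 1 the log2 fold change of Psmd14 was -0.97, inside the limit, and without shLmna 2 Psma4 missed the threshold. Libraries of the groups did not overlap for 26 of the 45 genes (57.8%), against 60.1% of all tested genes. The median log2 fold change was 0.03 over the 45 genes and -0.00107 over all tested genes. Fold changes of 27 genes were above 0 and those of 18 below. By edgeR, 15 of the 45 genes had an unadjusted p under 0.05. Such values were common over all tested genes too. Ubqln1, at rank 2736 of 9150 by p, still had an unadjusted p of 0.0495 by edgeR.

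Over all tested genes, more were called higher than in the main fit when either shControl library was left out. Fewer were called higher when either shLmna library was left out. The count of higher proteasome genes also depended on single libraries. By edgeR, it was larger than in the main fit without shControl 1, and smaller without shControl 2, shLmna 1 or shLmna 2. The count of lower proteasome genes did not fall in any of these fits. Each such fit leaves 1 library in a group, so only the direction of these counts is given. Psma5, Psmb5 and Psmd11 passed without shControl 1 and in none of the other 3 fits, where edgeR adjusted p ranged from 0.0853 to 0.271 for Psma5, from 0.154 to 0.227 for Psmb5 and from 0.0870 to 0.278 for Psmd11. Psmc6 passed without either shControl library, with adjusted p of 0.0701 without shLmna 1 and 0.142 without shLmna 2. Psmd14 passed in all 4 fits.

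**Figure D1:**
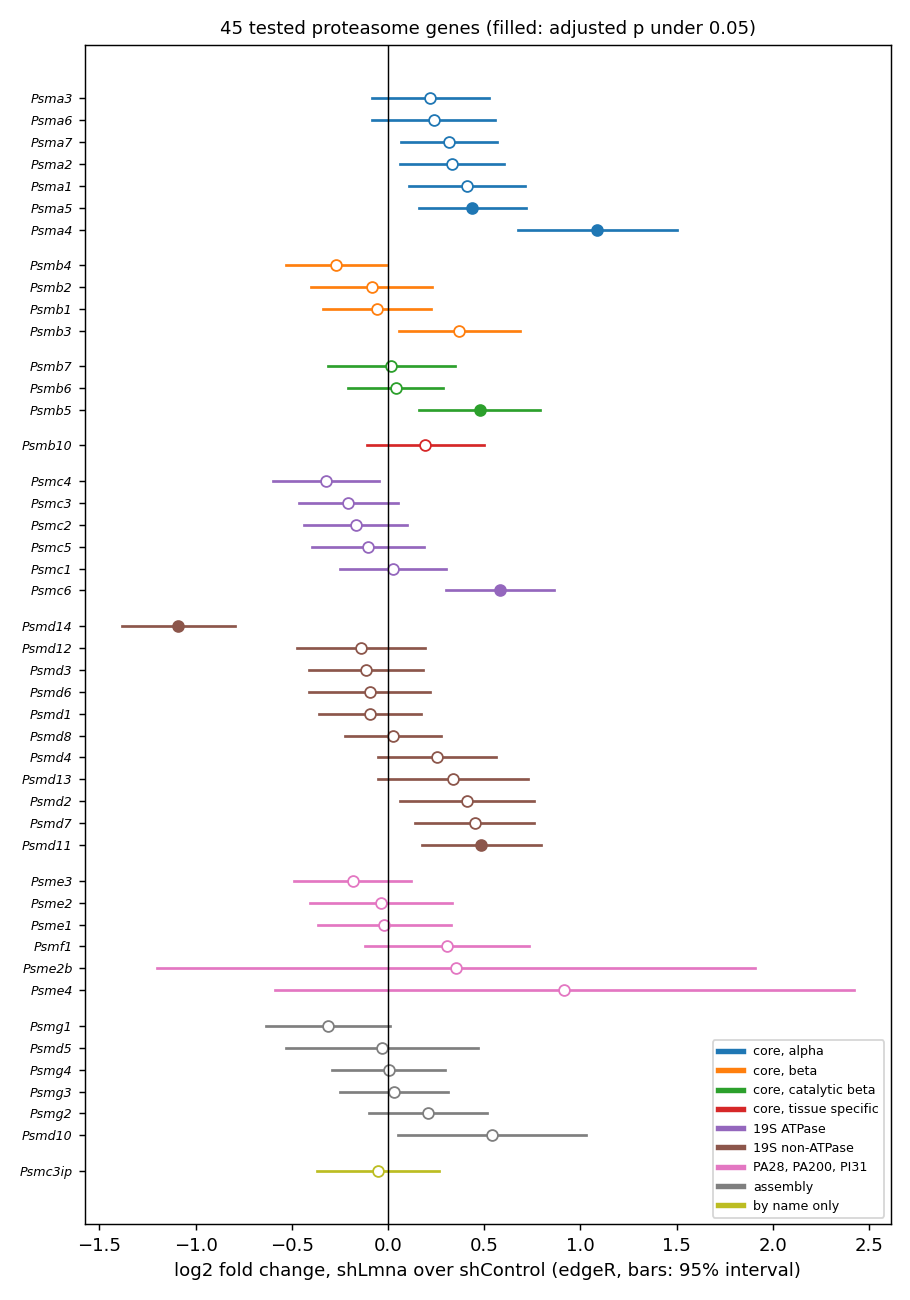
Log2 fold change of shLmna over shControl (x axis) for the 45 tested proteasome genes, grouped and coloured by role, with 95% intervals from edgeR as bars and filled points for an adjusted p under 0.05. Psmd14 lies alone at -1.09, Psma4 lies at 1.09, and the alpha subunits all lie above 0.

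Proteasome transcripts made up 1.25% and 1.18% of all counts in shControl 1 and 2 and 1.27% in each shLmna library. Summed over the 50 genes, the level was 12336 ± 429 CPM (SD, n = 2) in shControl and 12603 ± 116 CPM in shLmna, a difference smaller than the spread between the shControl libraries. The median absolute log2 difference of a proteasome gene between group means was 0.217. Between replicate libraries it was 0.161 in shControl and 0.114 in shLmna. Over all tested genes the same 3 medians were 0.283, 0.205 and 0.184.

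Psmd14 encodes the metalloprotease of the lid that cuts the ubiquitin chain from a substrate as it is drawn in. The gene lies on the plus strand of chromosome 2, from base 61711694 to 61800376 (GRCm38, GENCODE), with 12 annotated exons. The shControl libraries held 1027 and 1137 raw counts, and the shLmna libraries 337 and 581. In CPM these are 318.1 and 304.4 against 133.3 and 158.3, so that both shLmna libraries lay well below both shControl libraries. The mean was 311.3 ± 9.68 CPM (SD, n = 2) in shControl and 145.8 ± 17.7 CPM with the hairpin. The fitted log2 fold change was -1.09 (SE 0.131, 95% interval -1.38 to -0.80) with an edgeR adjusted p of 0.000514. Psmd14 passed the test in all 12 alternative settings tried, with log2 fold changes from -1.21 to -0.60.

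Psmd7, the inactive partner with which Psmd14 forms a dimer in the lid, did not fall. Its level was 365.2 and 311.1 CPM in shControl and 500.3 and 424.8 CPM in shLmna. Both shLmna libraries were above both shControl libraries, at a log2 fold change of 0.45 (SE 0.138), and the edgeR adjusted p of 0.0557 missed the threshold. It passed in 7 of 12 alternatives. The count of Psmd14 per count of Psmd7 was 0.871 and 0.978 in shControl and 0.266 and 0.373 in shLmna.

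Of the 10 other subunits of the regulatory particle without ATPase activity, 1 rose. Psmd11, a scaffold of the lid that reaches down to the core, lies on chromosome 11, from base 80428615 to 80473248 on the plus strand. It had 71.55 and 67.2 CPM in shControl and 103.2 and 91.27 CPM in shLmna, without overlap. It rose by 0.48 on the log2 scale (SE 0.138, adjusted p = 0.0427 by edgeR) and passed in 7 of 12 alternatives, not in DESeq2 (adjusted p = 0.200) or with a correction for GC content (0.0717).

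The base scaffolds Psmd1 and Psmd2, which carry docking sites for ubiquitin receptors and shuttle factors, had fold changes of opposite sign. Psmd2 was at 266.4 and 195.7 CPM in shControl and 319.2 and 294.8 CPM in shLmna, with a log2 fold change of 0.41 (adjusted p = 0.110 by edgeR). Psmd1 was at 528.1 and 582.0 CPM in shControl and 511.8 and 529.1 CPM in shLmna, with a log2 fold change of -0.09 (adjusted p = 0.647 by edgeR). Psmd4, a ubiquitin receptor of the particle, was at 428.4 and 345.1 CPM in shControl and 475.0 and 446.3 CPM in shLmna. Its log2 fold change was 0.25 (adjusted p = 0.252 by edgeR). The groups overlapped for Psmd1 and not for Psmd2 and Psmd4, and none of the 3 passed.

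The remaining lid subunits are structural scaffolds. Psmd13 was at 326.2 and 233.7 CPM in shControl and 391.6 and 316.1 CPM in shLmna, with a log2 fold change of 0.34 (adjusted p = 0.230 by edgeR). Psmd12 was at 255.8 and 199.5 CPM against 192.2 and 219.9 CPM, a log2 fold change of -0.14. Psmd3 was at 442.3 and 439.1 CPM against 447.3 and 368.1 CPM, a log2 fold change of -0.11. In each of these 3 genes the groups overlapped. Psmd6 was at 117.1 and 116.7 CPM in shControl and 97.3 and 120.4 CPM in shLmna. Psmd8, the most abundant of the regulatory particle, was at 921.5 and 887.3 CPM in shControl and 956.4 and 887.1 CPM in shLmna. The last pair overlapped too, with log2 fold changes of -0.10 and 0.03.

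**Figure D2:**
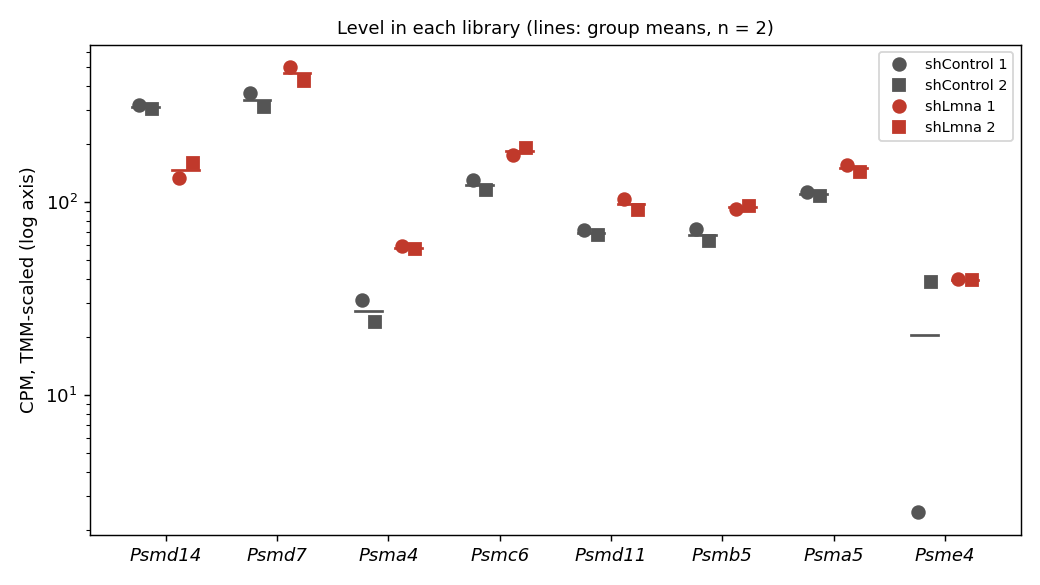
Level in CPM (log axis) of the 6 genes that passed the test, of Psmd7 and of Psme4 in each library, grey for shControl and red for shLmna, with circles for replicate 1, squares for replicate 2 and lines for group means. Psmd14 falls from a mean of 311.3 CPM to 145.8 CPM, its partner Psmd7 does not, and Psme4 has 1 shControl library at 2.48 CPM beside 3 libraries near 39 CPM.

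The 6 ATPases form the ring of the base that unfolds substrates and threads them into the core. Psmc6 rose, 4 of the others had fold changes below 0 and none of those 4 passed. Psmc6 lies on chromosome 14, from base 45329788 to 45349705 on the plus strand. Its level was 129.5 and 114.9 CPM in shControl and 175.6 and 189.6 CPM in shLmna, without overlap, which is a log2 fold change of 0.58 (SE 0.126) with an edgeR adjusted p of 0.0132. It was the least abundant of the ATPases, and the range from Psmc6 to Psmc3, the most abundant, was 5.45-fold in shControl and 3.16-fold in shLmna.

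Among the others, Psmc4 came nearest to the threshold. It was at 458.1 and 408.6 CPM in shControl and 337.0 and 355.8 CPM in shLmna, with a log2 fold change of -0.32 (adjusted p = 0.112 by edgeR). Psmc3 was at 691.6 and 640.7 CPM against 575.1 and 579.0 CPM, a log2 fold change of -0.21. Psmc2 was at 414.4 and 423.8 CPM against 358.7 and 386.6 CPM, a log2 fold change of -0.17. In all 3 genes both shLmna libraries lay below both shControl libraries. Psmc5 (257.4 and 225.7 CPM against 210.4 and 237.6 CPM) and Psmc1 (587.9 and 534.9 CPM against 537.1 and 603.8 CPM) overlapped between groups, with log2 fold changes of -0.11 and 0.02. Summed, the ATPases stood at 2443.7 ± 135 CPM in shControl and 2273 ± 112 CPM in shLmna, which overlapped.

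The alpha subunits build the outer rings of the core and its gate. All 7 had fold changes above 0 and groups that did not overlap, and 2 of the 7, Psma4 and Psma5, passed the test. Over all tested genes, 60.1% had groups that did not overlap and 5.48% were called higher. Each of the 7 kept a fold change above 0 in all 12 alternatives. Their summed level was 1403.6 ± 23.0 CPM (SD, n = 2) in shControl and 1788.8 ± 7.13 CPM in shLmna. With 2 libraries against 2, an exact permutation test of a sum cannot give a p below 0.333. The count of alpha subunits per count of the beta subunits Psmb1 to Psmb7 was 0.408 and 0.404 in shControl and 0.546 and 0.515 in shLmna.

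Psma4 encodes the alpha subunit whose tail is central to the gate. It lies on the plus strand of chromosome 9, from base 54950790 to 54958030. The shControl libraries held 100 and 89 raw counts and the shLmna libraries 150 and 209, which is 30.97 and 23.83 CPM against 59.33 and 56.94 CPM. The shLmna libraries were both near 58 CPM and both above the shControl libraries. The log2 fold change was 1.09 (SE 0.185), a rise of 113%, with an edgeR adjusted p of 0.00396. It passed in 11 of 12 alternatives, and without shLmna 2 the adjusted p was 0.0525. Of the 31-base words in its last 1000 transcript bases, 42.8% also occur in transcripts of other annotated genes, Gm6542 among them, which is not a symbol of the matrix.

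Psma5 lies on the plus strand of chromosome 3, from base 108256926 to 108279974. It was at 112.7 and 107.6 CPM in shControl and 155.8 and 142.8 CPM in shLmna, a rise of 0.44 on the log2 scale (SE 0.124, adjusted p = 0.0421 by edgeR). It passed in 7 of 12 alternatives, not in DESeq2 (adjusted p = 0.148) or with the GC correction (0.0696), and 79.8% of its 31-base words are shared, so that reads of near copies could be counted in it or lost from it. Psma1 was at 158.0 and 141.4 CPM against 180.0 and 216.6 CPM (log2 fold change 0.41, adjusted p = 0.0719 by edgeR). Psma2 was at 257.1 and 279.0 CPM against 331.4 and 344.4 CPM (log2 fold change 0.33, adjusted p = 0.0958 by edgeR). Neither passed, although shLmna was above shControl in every pair of libraries.

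Psma7, the most abundant of the alpha genes, was at 687.0 and 676.8 CPM in shControl and 874.9 and 826.4 CPM in shLmna, with a log2 fold change of 0.32 (adjusted p = 0.0878 by edgeR). Psma6 was at 100.05 and 89.42 CPM against 100.9 and 121.5 CPM, and Psma3 at 74.03 and 69.34 CPM against 81.48 and 85.28 CPM. Their log2 fold changes of 0.24 and 0.22 were the smallest of the alpha subunits.

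Of the beta subunits without a proteolytic site, none passed the test in either direction. Psmb4, the most abundant gene of the core, was at 1101 and 1006 CPM in shControl and 827.4 and 917.4 CPM in shLmna, with a log2 fold change of -0.27 (adjusted p = 0.150 by edgeR). Psmb3 was at 347.8 and 284.6 CPM against 435.5 and 382.8 CPM, with a log2 fold change of 0.37 (adjusted p = 0.107 by edgeR). The groups did not overlap in these genes and lay in opposite orders. Psmb1 (772.8 and 796.8 CPM against 684.2 and 823.6 CPM) and Psmb2 (170.7 and 217.7 CPM against 177.6 and 188.5 CPM) overlapped. The sum of the 4 genes was 2348.7 ± 61.9 CPM in shControl and 2218.5 ± 133 CPM in shLmna.

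The catalytic beta subunits of the constitutive core are Psmb5, with chymotrypsin-like activity, Psmb6, with caspase-like activity, and Psmb7, with trypsin-like activity. Psmb5 rose and the others did not pass. Psmb5 lies on the minus strand of chromosome 14, from base 54614119 to 54618022, and was at 72.79 and 62.65 CPM in shControl and 92.55 and 95.36 CPM in shLmna. It rose by 0.48 on the log2 scale (SE 0.141) with an edgeR adjusted p of 0.0482, close to the threshold, and it passed in 8 of 12 alternatives, not in DESeq2 (adjusted p = 0.233). Of its 31-base words 74.0% are shared with other annotated transcripts.

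Psmb6 was at 788.9 and 771.6 CPM in shControl and 805.3 and 798.0 CPM in shLmna, with a log2 fold change of 0.04 (95% interval -0.21 to 0.28). Psmb7 was at 227.3 and 290.8 CPM against 245.6 and 278.2 CPM, with a log2 fold change of 0.02 (95% interval -0.31 to 0.35). The catalytic sum was 1107 ± 25.4 CPM in shControl and 1157.5 ± 19.9 CPM in shLmna, without overlap between groups.

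**Figure D3:**
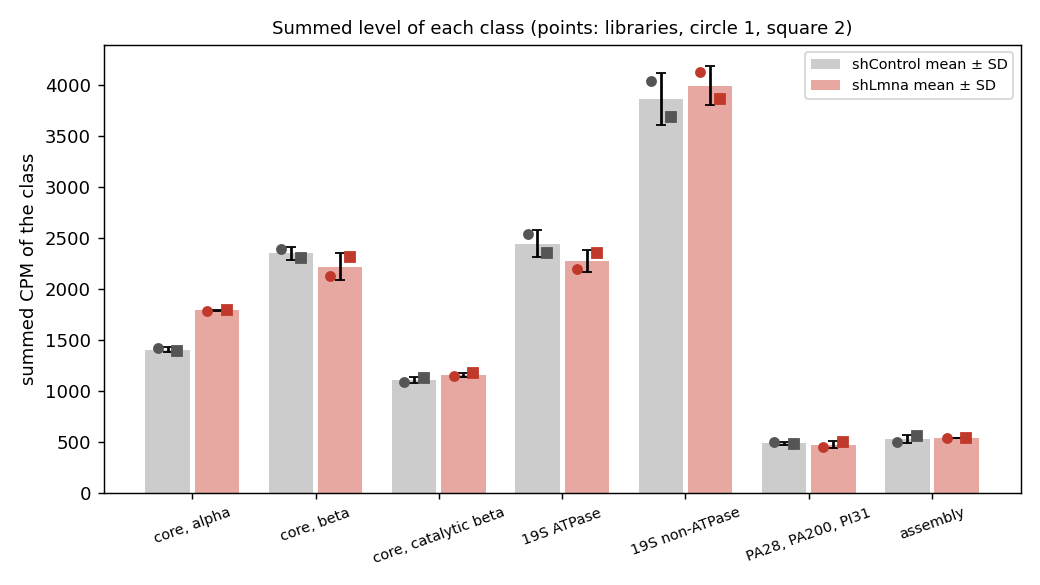
Summed level in CPM of the genes of each role, with bars for the mean of 2 libraries, error bars for the SD and points for the libraries (grey shControl, red shLmna; core, beta stands for Psmb1 to Psmb4). The alpha sum moves from 1403.6 to 1788.8 CPM without overlap between groups, and the catalytic beta sum does not overlap either. The non-ATPase, ATPase and Psmb1 to Psmb4 sums overlap.

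The levels of genes that encode subunits of one core particle were far apart. MARS-seq counts a window at the 3′ end of each gene, so CPM values of genes are set side by side without division by length. Among the 14 constitutive core genes in shControl, the mean level ran from 27.4 CPM for Psma4 to 1053.5 CPM for Psmb4, a 38.45-fold range. In shLmna these genes were still the lowest and the highest, and the range was 15.01-fold. Over 20% of the 31-base words were shared with other annotated transcripts in 11 of the 50 genes, which besides Psma4, Psma5 and Psmb5 are Psme2b (78.4%), Psmb3 (66.8%), Psme2 (66.2%), Psmd2 (46.8%), Psmc1, Psmd1, Psme1 and Psmg3, and in 26 genes no word was shared. Shared sequence could add to such ranges or take from them, and its part was not tested.

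The interferon-inducible subunits Psmb8, Psmb9 and Psmb10 replace Psmb5, Psmb6 and Psmb7 in the immunoproteasome, which shapes peptides for MHC class I. Psmb10 alone was expressed above the filter, at 80.22 and 72.29 CPM in shControl and 89.78 and 84.73 CPM in shLmna, with a log2 fold change of 0.19 (adjusted p = 0.380 by edgeR). Psmb8 had 4 and 5 counts in shControl and 0 and 2 counts in shLmna. Psmb9 had 3 counts in shControl 1 and none in the other 3 libraries. A count of 0 allows up to 3 counts, or 0.803 to 1.19 CPM in these libraries, from counting error alone, so a difference in Psmb8 or Psmb9 was not detectable at this depth. The thymus subunit Psmb11 and the testis subunit Psma8 had 0 counts in every library.

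Of the alternative regulators, the activators PA28 and PA200 bind the core in place of the regulatory particle. None of the 6 tested genes of this class passed in either direction. Psme1 and Psme2, the subunits of the interferon-inducible activator PA28, were at 86.11 and 67.74 CPM and at 42.43 and 41.23 CPM in shControl. In shLmna they were at 75.15 and 76.29 CPM and at 41.92 and 39.78 CPM. The groups overlapped for both, with log2 fold changes of -0.02 and -0.04. Psme2b, a near copy of Psme2 that shares 78.4% of its 31-base words with other transcripts, had 2 and 13 counts in the control libraries against 6 and 11.

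Psme3, the nuclear form of PA28, was the most abundant of the alternative regulators, at 340.7 and 298.5 CPM in shControl and 258.3 and 303.5 CPM in shLmna (log2 fold change -0.18, adjusted p = 0.401 by edgeR). Psmf1, which encodes the PI31 protein, was at 26.33 and 29.72 CPM against 33.62 and 35.69 CPM (log2 fold change 0.31, adjusted p = 0.319 by edgeR). Psmf1 did not overlap between groups and Psme3 did.

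Psme4, which encodes the large activator PA200, differed widely between the shControl replicates. It had 8 counts in shControl 1 and 144 in shControl 2, and 101 and 145 counts in shLmna. In CPM, shControl 2 at 38.55 was close to the shLmna libraries at 39.95 and 39.51, and shControl 1 stood apart at 2.48. The log2 fold change was 0.92 (SE 0.673, adjusted p = 0.400 by edgeR), but 0.05 without shControl 1 and 3.98 without shControl 2. Without the filter on low counts edgeR called it higher (adjusted p = 0.000749). The value therefore turns on which shControl library is kept.

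The assembly chaperones guide subunits into place and leave the mature particle. None of the 6 tested genes passed the test, and the summed level was 529.5 ± 41.0 CPM in shControl and 538.3 ± 0.607 CPM in shLmna. Psmg1 and Psmg2 form the dimer that starts the alpha ring. Psmg1 was at 68.76 and 70.41 CPM in shControl and 53.0 and 58.85 CPM in shLmna, with a log2 fold change of -0.31 (SE 0.144, adjusted p = 0.180 by edgeR). Psmg2 was at 74.03 and 83.26 CPM against 94.53 and 87.73 CPM, with a log2 fold change of 0.21 (SE 0.137, adjusted p = 0.348 by edgeR). These partners had fold changes of opposite sign, neither past the threshold.

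Psmg3 and Psmg4, the other pair of core chaperones, overlapped between groups. Psmg3 was at 175.3 and 179.4 CPM in shControl and 196.2 and 167.3 CPM in shLmna, and Psmg4 at 97.88 and 111.6 CPM against 103.6 and 106.5 CPM. The 95% interval of the log2 fold change was -0.25 to 0.31 for Psmg3 and -0.29 to 0.30 for Psmg4.

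Psmd5, Psmd9 and Psmd10 are named as regulatory subunits but act as chaperones of the ATPase ring. Psmd10, also called gankyrin, was at 22.92 and 17.94 CPM in shControl and 28.87 and 30.24 CPM in shLmna, with a log2 fold change of 0.54 (SE 0.218, adjusted p = 0.130 by edgeR). Psmd5 was at 58.85 and 92.64 CPM against 62.1 and 85.55 CPM, where the replicates of each group differed more than the groups. Psmd9 had 9 and 12 counts in shControl and 1 and 6 counts in shLmna and was not tested. Psmc3ip, the gene that matched by name, was at 77.13 and 73.63 CPM against 67.63 and 77.11 CPM.

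Over all tested genes, fold change differed with base composition of the counted 3′ end, most in the range of lowest GC. Of the 1147 tested genes with at most 38% GC in the last 1000 transcript bases, 32.1% were lower and 8.37% higher in shLmna, with a median log2 fold change of -0.28. In the ranges above 38%, medians ran from -0.09 to 0.07, with 4.34% to 8.49% lower and 3.05% to 8.71% higher. Proteasome genes ranged from 29.4% GC in Psmc6 to 58.9% in Psmb10, with a median of 48.7% over the tested ones and 46.9% over all tested genes. Psmc6 and Psma2 were the tested proteasome genes with at most 38%, and both had fold changes above 0. With a correction for GC, the log2 fold change of Psmc6 was 1.43. Psmd14 had 40.9% GC, a range in which the median of all genes was 0.05, and passed with the correction too.

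**Figure D4:**
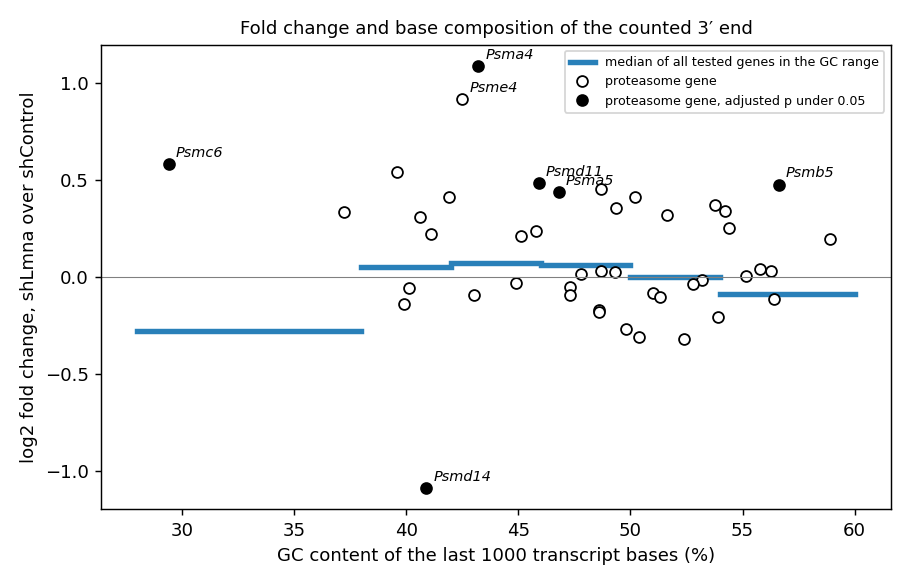
Log2 fold change of shLmna over shControl (y axis) against GC content of the last 1000 transcript bases (x axis, percent) for the 45 tested proteasome genes, with filled points for an adjusted p under 0.05 and blue lines for the median of all tested genes in each GC range. Psmc6 stands at 29.4% GC and above 0, where the median of all genes is -0.28.

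Partners of the proteasome with other symbols were counted in the same fit. Of 10 tested genes for further subunits, deubiquitinases and assembly or import factors, 2 fell and 1 rose, where 9.74% of all tested genes were lower and 5.48% higher. Akirin2, which brings proteasomes into the nucleus, was at 197.9 and 184.5 CPM in shControl and 9.49 and 29.15 CPM in shLmna, a log2 fold change of -3.22 (SE 0.310, adjusted p = 0.000128 by edgeR). Without shLmna 1 the value was -2.71, and without shLmna 2 it was -4.31. Uchl5, a deubiquitinase that docks on the particle through Adrm1, was at 104.1 and 93.71 CPM against 45.09 and 60.49 CPM. It fell by 0.89 on the log2 scale (adjusted p = 0.00665 by edgeR), but with the GC correction the log2 fold change was -0.44 (adjusted p = 0.139), and without shLmna 1 it was -0.70 (adjusted p = 0.0762). Usp14, the third deubiquitinase of the proteasome beside Psmd14 and Uchl5, rose from 5 and 6 counts to 12 and 32 counts (adjusted p = 0.0203 by edgeR, 0.197 by DESeq2 and 0.312 by edgeR without shLmna 2). The 3 deubiquitinases thus did not share a direction, and Usp14 rests on few counts.

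Of 7 tested genes of the NFE2L1 pathway, none fell and 1 rose, where 9.74% of all tested genes were lower and 5.48% higher. Nfe2l1 itself was at 74.96 and 77.11 CPM in shControl and 121.4 and 113.9 CPM in shLmna, without overlap, a rise of 0.63 on the log2 scale (SE 0.128, adjusted p = 0.01001 by edgeR). Without shLmna 1 the adjusted p was 0.100, and without shLmna 2 it was 0.0728.

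Of 13 tested genes for ubiquitin, its activating enzymes and shuttle factors, 2 fell and 1 rose. The shares over all tested genes were 9.74% lower and 5.48% higher. Uba1, the main ubiquitin-activating enzyme, was at 455.9 and 516.2 CPM in shControl and 363.1 and 350.7 CPM in shLmna (log2 fold change -0.45, adjusted p = 0.0374 by edgeR). It passed without shControl 1 and missed the threshold without any other library. Ubqln2, a shuttle factor, had 67 and 45 counts against 1 and 15 counts (log2 fold change -2.68, adjusted p = 0.0114 by edgeR). Without shLmna 1 its log2 fold change was -1.98, and without shLmna 2 it was -5.22. Rps27a, which encodes ubiquitin fused to a ribosomal protein, was at 488.5 and 589.5 CPM against 988.0 and 843.8 CPM (log2 fold change 0.76, adjusted p = 0.00542 by edgeR, and 0.0809 without shLmna 1).

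Of 9 tested genes of MHC class I antigen processing, 3 fell and none rose, where 9.74% of all tested genes were called lower and 5.48% higher. They are Canx and Calr, general chaperones of the endoplasmic reticulum, and H2-K1, a class I heavy chain. Canx was at 64.74 and 101.7 CPM in shControl and 10.68 and 13.08 CPM in shLmna (log2 fold change -2.79, adjusted p = 0.000104 by edgeR). Calr fell by 0.55 on the log2 scale (adjusted p = 0.0164 by edgeR, and 0.189 without shLmna 1). H2-K1 had 53 and 55 counts against 21 and 29 counts, with an edgeR adjusted p of 0.0405 that was lost in DESeq2 (0.404) and without shControl 1, shLmna 1 or shLmna 2 (0.0789 to 0.197).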

How the data were processed

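The authors processed reads in the UTAP pipeline, trimming with Cutadapt, aligning to mouse mm10 with STAR 2.4.2a, marking UMI duplicates and counting with HTSeq over the last 1000 bases of RefSeq genes and 100 bases downstream. They deposited raw counts per gene symbol, the input of the main test. Whether duplicates were collapsed in that matrix is not stated. A second deposited table holds a signal per library (counts divided by a DESeq2 size factor, from which whole counts were recovered for 100% of values within 0.01) and the authors' own p-values, which were not used. Another table holds deposited log2 values that the authors corrected with ComBat for batches that were not named.

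Groups came from the sample titles. shLmna was compared with shControl by the two-sided quasi-likelihood F test of edgeR 4.0.16 (R 4.3.3) with TMM scaling, the filterByExpr filter and group as the only term, adjusted over 9150 genes by Benjamini-Hochberg. CPM values are TMM-scaled. Alternatives were DESeq2 1.42.0, RLE and library-total scaling, no filter, each library left out, a replicate block, the recovered counts, limma 3.58.1 on the log2 values and a GC correction. The biological coefficient of variation was 0.126. Replicates differed by more than sampling noise (chi-square per degree of freedom 6.96 in shControl, 3.91 in shLmna). The fit was tested on simulated data. Coordinates, GC content and shared 31-base words come from GENCODE (GRCm38), and promoters from RefSeq (GRCm38.p6). Members, classes and lists were chosen with earlier results of these data known. Named are members that passed, members of set roles, the 5 largest fold changes that did not pass, members whose sign or call changed in an alternative, and listed partners that passed. Psme3ip1 and promoters outside the table were not analysed here. Floors of 3 counts cover counting error only.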

Additional observations from a re-analysis of the deposited data

How the results depend on the processing

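Psmd14 fell in all 12 alternatives. Over all tested genes the calls moved with the setting too. In the main fit 501 of 9150 were called higher and 891 lower. These were 217 and 589 of 13616 with DESeq2, and 750 and 1292 of 13616 without a filter. With the replicate block they were 852 and 1220 of 9150, and with the GC correction 521 and 842 of 9150. With limma on the batch-corrected values they were 1793 and 1988 of 10417. The count of proteasome genes that fell (1) was 6 with limma on the batch-corrected values. The count that rose (5) was 3 with DESeq2, 9 without a filter, 12 with the replicate block, 15 with limma and 3 with the GC correction. With a library left out, both counts moved as described above. Past the study's limits, the lower count of proteasome genes (1) was 0 with limma. The higher count (1) was 2 with the block, 0 with limma and 2 with the GC correction. Over all tested genes, 209 of 9150 were higher past these limits with the block and 174 of 9150 with the GC correction. With a library left out, Psmd14 and Psma4 missed the limits or the threshold as given above. The median log2 fold change of the proteasome genes (0.03) was 0.0648 with library totals, 0.0191 with limma, 0.0988 with the GC correction and 0.0548 to 0.108 with a library left out. Over all tested genes the median (-0.00107) was 0.0310 with library totals, -0.00150 with limma and -0.00143 with the GC correction. With a library left out it was -0.0142 to 0.00220. In the partner lists, the count of lower genes (7) was smallest without shLmna 1. The count of higher genes (3) was larger without either shControl library and smaller without either shLmna library. With limma it was 6. With limma on the batch-corrected values, log2 fold changes were smaller in size, -1.54 against -2.61 for Lmna and -0.60 against -1.09 for Psmd14. Over all tested genes, 27 lower and 2 higher then passed the study's limits, against 538 and 161 in the main fit. The causes were not tested, other than that fewer libraries enter a fit with one left out, and that a lone library is then assumed to vary like the other group.

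Replicate numbers did not pair the libraries (correlation of deviations 0.0129). The replicate block is still among the 12 alternatives counted for single genes, and in the tally that follows. Psma5, Psmb5, Psmd11 and Psmd7 passed with it, at edgeR adjusted p of 0.0120, 0.0129, 0.0108 and 0.00416. Over the 45 tested genes and all alternatives, 456 values kept sign and call, 17 lost the call, 38 gained it and 28, in 15 genes, changed sign. The log2 fold change changed sign with library totals in Psmd5 (0.00152) and Psme1 (0.0127), with recovered counts (0.0234) and limma (0.00986) in Psmd5, and with the GC correction in Psmb7 (-0.0380), Psmc1 (-0.00669), Psmd8 (-0.0133) and Psme1 (0.00605). With a library left out it ranged from -0.185 to 0.0745 in Psmb1, -0.246 to 0.0995 in Psmb2, -0.146 to 0.203 in Psmb7, -0.0512 to 0.110 in Psmc1, -0.143 to 0.0381 in Psmc3ip, -0.313 to 0.0524 in Psmd12, -0.255 to 0.0346 in Psmd3, -0.309 to 0.338 in Psmd5, -0.252 to 0.0477 in Psmd6, -0.0229 to 0.0935 in Psmd8, -0.188 to 0.164 in Psme1, -0.0673 to 0.0166 in Psme2, -0.344 to 0.510 in Psme2b, -0.0795 to 0.159 in Psmg3 and -0.0837 to 0.100 in Psmg4. Depth limits Psmb8, Psmb9, Psmd9 and Psme2b most, with at most 13 counts in any library.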
